A study of Mus musculus with 9 samples.

Results

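Genes of the bone morphogenetic protein (BMP) and transforming growth factor-beta (TGF-beta) family were followed through cultures of mouse embryonic fibroblasts (MEFs) that were being converted into induced neurons (iNs). Members were taken by gene symbol. The symbols found 62 of the 30406 genes that every library's table holds. They comprise 20 BMP and growth differentiation factor (GDF) ligands, 7 TGF-beta and activin ligands, 12 receptors, 9 secreted antagonists and binding proteins, 8 SMAD proteins and 4 ID proteins. The remaining 2, Bmp1 and Bmp2k, carry the BMP name without being ligands: Bmp1 encodes a protease that trims procollagen and cleaves chordin, and Bmp2k encodes a kinase.

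As background, ligands of the family are secreted dimers that bring type I and type II receptor kinases together on the receiving cell. Receptors for TGF-beta and activin phosphorylate Smad2 and Smad3, receptors for BMPs phosphorylate Smad1, Smad5 and Smad9, and both sets enter the nucleus with Smad4, while Smad6 and Smad7 hold the response back. In fibroblasts TGF-beta is best known for driving matrix production and contraction, and in the early embryo BMP signals oppose a neural fate. ID genes are standard BMP targets, and their products bind E proteins and so keep basic helix-loop-helix factors from DNA.

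The cultures were wild type (WT), Per1-/- (allele Per1tm1Drw) or Per2-/- (allele Per2tm1Drw). All of them, WT included, received lentiviruses for the reprogramming factors under a doxycycline promoter together with the rtTA activator, and all were kept in serum-free N3 medium with doxycycline. The MEFs came from mid-gestation embryos without head and heart, several embryos to a dish, and embryo sex was not determined. Cells were taken for droplet 3′ RNA sequencing on days 4, 7 and 10 of conversion. There was 1 library per genotype and day, so 9 libraries in all, and values below are listed in the order WT, Per1-/-, Per2-/- unless stated otherwise. A comparison of days uses the 3 genotypes as its repeats, a comparison of genotypes uses the 3 days, and no culture was repeated within a genotype and day. Its p-values therefore measure the spread between these libraries.

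The tables held 126625215 to 353198559 unique molecular identifiers (UMIs) per library and 95603 barcodes, of which 74785 were kept as single cells (6047 to 10656 per library). Libraries shared 13 to 365 barcode sequences in each of 36 pairs. The WT day 10 library stood apart: 55.0% of its barcodes passed the filters against 86.1 to 94.5% elsewhere, and 40.2% of its kept cells fell in an unnamed low-UMI cluster led by Fabp4, a fatty acid binding protein of fat cells. In the Per2-/- day 10 library, 40.3% of kept cells fell in another unnamed cluster, led by Pcolce2, Mia, Hapln1 and Comp. Counts at the 3′ end of the targeted genes were no lower in the libraries labelled as knockouts, with Per1 at 9.17, 9.49 and 10.3 counts per 1000000 UMIs (CPM) on days 4, 7 and 10 in those labelled Per1-/- against 6.34, 6.63 and 7.95 in WT. Per2 stood at 6.32, 4.97 and 6.4 CPM in those labelled Per2-/- against 2.58, 2.79 and 3.02 in WT. Which part of each gene the alleles lack is not given in the sources used here, so these tags do not check the labels. By western blotting, the authors reported that the PER1 and PER2 proteins were absent from the Per1-/- and Per2-/- MEFs, respectively.

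Cells were clustered without the family, its pathway genes and mitochondrial genes, and clusters were named from marker lists. The labels call all samples induced neurons, yet neuron-like cells made up 3.13 to 30.3% of a library (9972 cells) and fibroblast-like cells 23.8 to 66.0% (39429 cells). Macrophage-like cells made up 1.75 to 23.1% (6453 cells). Smaller classes were skeletal muscle-like (5845 cells, whose leading genes also include the neuronal genes Prph, Tnr and Sv2b), Schwann-like (2573), astrocyte-like (916) and mesothelial-like (452, none of them in the WT day 10 library), and 9145 cells stayed unnamed. A level below is the gene's share of a class's UMIs in CPM, summed over all libraries unless single libraries are given. Each 3′ UMI stands for 1 transcript, so levels were not divided by transcript length. The fibroblast-like, neuron-like and macrophage-like classes were tested, and the others are described only.

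Of the 62 members, 36 reached 20 CPM in at least 1 class and 11 stayed under 1 CPM in every class. Those near 0 were all ligands: Bmp10, Bmp15, Bmp8a, Bmp8b, Gdf1, Gdf2, Gdf3, Gdf5, Gdf7, Inhbc and Inhbe. Gdf1, which acts in left-right patterning, had 0 UMIs in all named classes together. Members lie on 18 chromosomes, and the closest neighbours among them, Inhbe and Inhbc, lie 1911 bases apart on chromosome 10. Acvrl1 and Acvr1b, which encode type I receptors, are 28731 bases apart on chromosome 15 and had different leading classes.

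**Figure D1:**
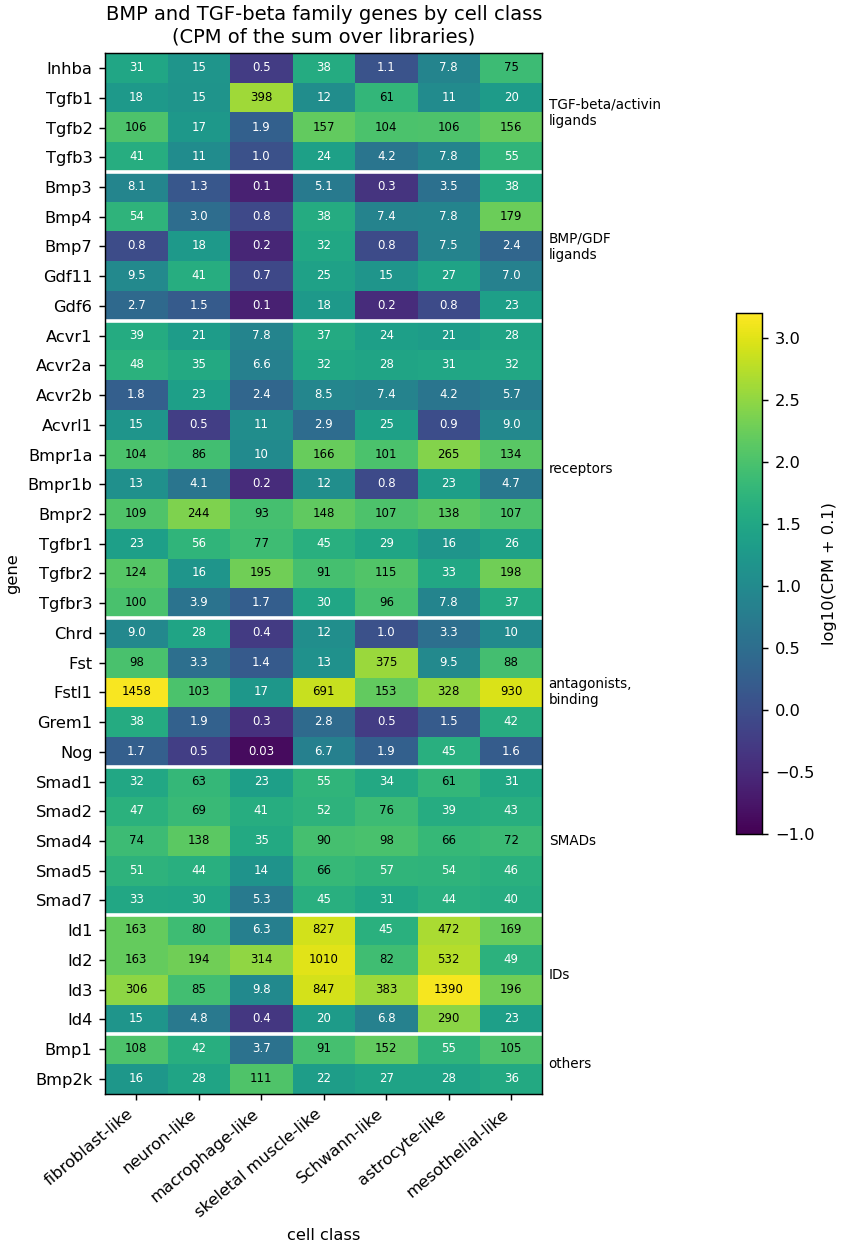
Level of 35 of the members that reached 20 CPM in at least 1 class (rows, grouped by role) in the 7 named classes (columns); colour follows log10 of CPM, brighter for higher levels, and the printed values are CPM summed over the 9 libraries, rounded to whole numbers from 10 upward. Tgfb1 peaks in the macrophage-like class (398 CPM), Fstl1 in the fibroblast-like class (1458 CPM) and Id3 in the astrocyte-like class (1390 CPM).

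Ligands were spread over different classes, and the TGF-beta isoforms differed in their leading classes. Tgfb1, the isoform best known from immune cells, lay at 398 CPM in macrophage-like cells, where single libraries ranged from 371 to 427 CPM with a median of 395. It stood at 17.8 CPM in fibroblast-like cells (14.3 to 19.6, median 17.5) and 14.9 CPM in neuron-like cells (8.42 to 18.3, median 13.4), so no macrophage-like library overlapped with any library of these classes. Schwann-like cells came next at 61.1 CPM. Tgfb2 and Tgfb3 were instead lowest in macrophage-like cells. Tgfb2 reached 157 CPM in skeletal muscle-like and 156 CPM in mesothelial-like cells and stood at 106 CPM in fibroblast-like and astrocyte-like and 104 CPM in Schwann-like cells against 1.85 CPM in macrophage-like cells, and Tgfb3 55.4 CPM in mesothelial-like and 41.4 CPM in fibroblast-like cells against 1.01 CPM. Inhba, which encodes the activin A subunit, was highest in mesothelial-like cells (74.8 CPM) and stood at 38.2 CPM in skeletal muscle-like and 30.6 CPM in fibroblast-like cells. The leading classes of Tgfb2 and Inhba did not differ from their neighbours beyond the spread of libraries: Tgfb2 ranged from 141 to 197 CPM in skeletal muscle-like and from 92.7 to 272 CPM in mesothelial-like libraries, and Inhba from 16.8 to 145 CPM in mesothelial-like libraries. Tgfb3 was higher in mesothelial-like than in fibroblast-like cells in 5 of 8 libraries.

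Among BMP ligands, Bmp4, a main BMP of embryonic mesenchyme, was the most abundant. It lay at 179 CPM in mesothelial-like cells (110 to 254 CPM over the 8 libraries that held them, median 191) and at 53.7 CPM in fibroblast-like cells (33.5 to 60.2, median 56.4). These ranges did not overlap. Bmp4 was low in neuron-like cells (3.04 CPM) and near 0 in macrophage-like cells (0.755 CPM). Bmp7 lay at 31.5 CPM in skeletal muscle-like and 18.3 CPM in neuron-like cells against 0.831 CPM in fibroblast-like cells. It was uneven inside these classes. Skeletal muscle-like clusters 18 and 7 held 105.5 and 15.9 CPM, and neuron-like clusters 4, 9 and 16 held 36.2, 1.92 and 5.16 CPM. Gdf11, a ligand that acts through activin receptors, was highest in neuron-like cells at 41.3 CPM, where libraries ranged from 29.6 to 46.7 CPM and stayed above every fibroblast-like library (7.19 to 11.2 CPM). Bmp3 (38.2 CPM) and Gdf6 (23.5 CPM) led in mesothelial-like cells. Gdf15, a stress-induced ligand, reached 19.5 CPM in macrophage-like cells and 17.1 CPM in astrocyte-like cells, the latter between 2.31 and 53.2 CPM from library to library.

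**Figure D2:**
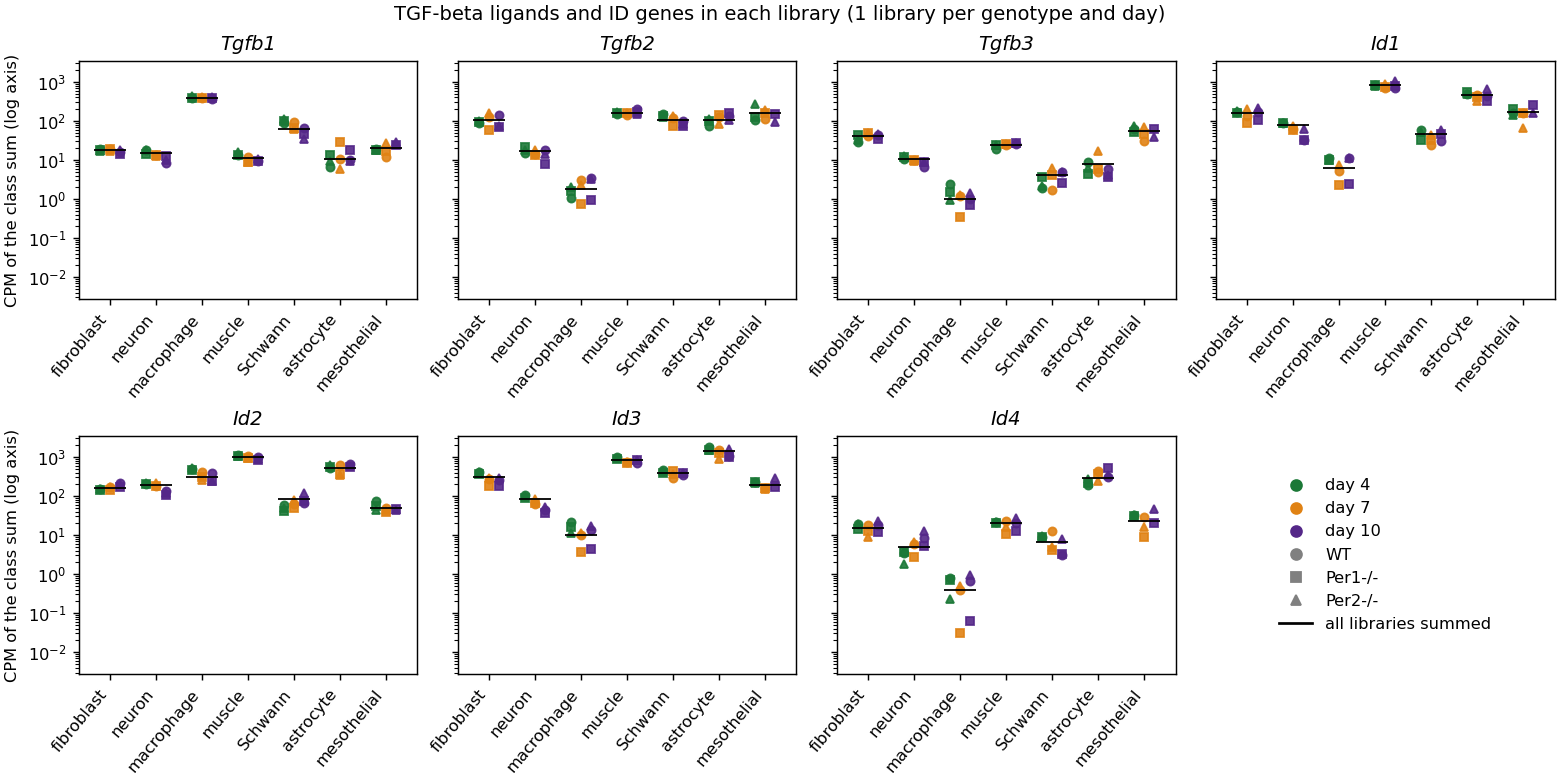
Level (CPM, log axis) of the 3 TGF-beta isoforms and the 4 ID genes in the 7 classes (x axis), 1 panel per gene and 1 point per library, with colour for the day, marker shape for the genotype and a black line for all libraries summed. Tgfb1 points of the macrophage-like class lie between 371 and 427 CPM, above all other classes, while Tgfb2, Tgfb3, Id1 and Id3 lie lower in that class than in fibroblast-like cells.

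Of the 12 receptors, 10 reached 20 CPM in at least 1 class. Bmpr2, the main type II receptor for BMPs, lay at 244 CPM in neuron-like cells (159 to 267, median 233), and at 109 CPM in fibroblast-like (81.3 to 136) and 92.6 CPM in macrophage-like cells (80.6 to 113). The neuron-like libraries were all above the others. Bmpr1a, a type I BMP receptor, was highest in astrocyte-like cells (265 CPM) and stood at 104 CPM in fibroblast-like, 86.3 CPM in neuron-like and 10.1 CPM in macrophage-like cells. The TGF-beta receptors parted by class. Tgfbr2, which binds the ligand, lay at 195 CPM in macrophage-like (144 to 262, median 177) and 124 CPM in fibroblast-like cells (89.9 to 141, median 123), and at 15.6 CPM in neuron-like cells (7.86 to 21.4, median 10.5). Tgfbr1, its type I partner, was instead higher in macrophage-like (77.3 CPM) and neuron-like (55.7 CPM) than in fibroblast-like cells (23.2 CPM). Tgfbr3, the co-receptor betaglycan that presents Tgfb2, stood at 100 CPM in fibroblast-like and 95.6 CPM in Schwann-like cells against 1.72 CPM in macrophage-like cells. Among receptors with Acvr symbols, Acvr2a was highest in fibroblast-like cells (47.9 CPM), Acvr1 was about level in fibroblast-like (38.6 CPM) and skeletal muscle-like cells (36.9 CPM), and Acvr2b was highest in neuron-like cells (23.0 CPM, 11.1 to 29.9, median 18.9). Acvrl1, a receptor best known from endothelium, and Bmpr1b led in Schwann-like (24.6 CPM) and astrocyte-like cells (22.5 CPM).

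Secreted antagonists led in different classes. Fstl1, a secreted follistatin-like glycoprotein, was the most abundant member of all, with 1458 CPM in fibroblast-like cells (1232 to 1818, median 1503) against 103 CPM in neuron-like and 16.6 CPM in macrophage-like cells. Follistatin itself, Fst, which traps activins, was highest in Schwann-like cells at 375 CPM but varied there from 97.3 to 599 CPM. In fibroblast-like cells it stood at 97.5 CPM (61.1 to 214), so the ranges of these classes overlapped. Grem1, which binds BMPs, stood at 41.7 CPM in mesothelial-like and 38.2 CPM in fibroblast-like cells. Chordin, Chrd, led in neuron-like cells (27.9 CPM) and noggin, Nog, in astrocyte-like cells (44.6 CPM, 29.3 to 104).

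Of the SMAD genes, Smad1 to Smad5 and Smad7 stood above 5 CPM in all classes, whereas Smad6 and Smad9 were at 0.522 and 0.0451 CPM in macrophage-like cells. Smad4, the shared partner, had 138 CPM in neuron-like cells with all libraries summed, but single libraries ranged from 54.8 to 187 CPM and overlapped with fibroblast-like ones (53.1 to 104). It was higher in neuron-like than in Schwann-like cells (98.2 CPM) in 3 of 9 libraries. Macrophage-like cells were lowest for Smad4, at 35 CPM. Smad1 was nearly level in neuron-like (62.7 CPM) and astrocyte-like cells (60.9 CPM). Smad2 (76.5 CPM) led in Schwann-like cells and Smad5 (65.9 CPM) in skeletal muscle-like cells, and the inhibitor Smad7 was about level in skeletal muscle-like (44.6 CPM) and astrocyte-like cells (43.9 CPM). Smad3, Smad6 and Smad9 stayed under 20 CPM in every class.

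The ID genes, as targets of BMP receptors, differed widely between classes. Id1 lay at 827 CPM in skeletal muscle-like cells (698 to 1077), 472 CPM in astrocyte-like, 163 CPM in fibroblast-like and 79.5 CPM in neuron-like cells. Id3 had its peak in astrocyte-like cells (1390 CPM, 910 to 1809) and stood at 847 CPM in skeletal muscle-like, 383 CPM in Schwann-like, 306 CPM in fibroblast-like and 84.6 CPM in neuron-like cells. Both were at the lower end in macrophage-like cells, Id1 at 6.29 CPM and Id3 at 9.82 CPM. Id2 departed from them. It reached 1010 CPM in skeletal muscle-like cells (850 to 1104), 532 CPM in astrocyte-like and 314 CPM in macrophage-like cells (242 to 523), against 163 CPM in fibroblast-like cells (140 to 217). Id4 was an astrocyte-like gene at 290 CPM (188 to 513), and the next class, mesothelial-like, stood at 23.3 CPM.

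The starts of 3 of these genes are shown: 250 bases before to 50 bases after the start, from RefSeq on GRCm38.p6, 5′ to 3′ on the gene's strand. Id1 had no entry in the promoter set used. Whether these sequences bear on the levels was not tested. Capitals mark every match to GGCGCC, a GC-rich site that BMP-activated SMADs can bind and that reads the same on both strands, or to CAGAC, the core SMAD motif, whose reverse complement is GTCTG. The windows are chr12:25096043-25096342 on the minus strand for Id2, chr4:136143572-136143871 on the plus strand for Id3 and chr13:48260866-48261165 on the plus strand for Id4.
Id2: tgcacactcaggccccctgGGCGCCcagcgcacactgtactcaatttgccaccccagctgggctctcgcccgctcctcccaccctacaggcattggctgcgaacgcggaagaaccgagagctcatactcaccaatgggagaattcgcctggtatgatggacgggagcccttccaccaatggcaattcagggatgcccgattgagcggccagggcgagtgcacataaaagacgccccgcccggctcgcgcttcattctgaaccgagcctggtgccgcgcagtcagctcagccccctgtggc
Id3: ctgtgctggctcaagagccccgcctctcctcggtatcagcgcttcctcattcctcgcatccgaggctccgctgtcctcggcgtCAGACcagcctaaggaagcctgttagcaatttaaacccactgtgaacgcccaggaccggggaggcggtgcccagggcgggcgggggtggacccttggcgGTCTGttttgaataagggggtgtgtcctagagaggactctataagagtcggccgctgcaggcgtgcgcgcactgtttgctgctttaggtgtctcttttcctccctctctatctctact
Id4: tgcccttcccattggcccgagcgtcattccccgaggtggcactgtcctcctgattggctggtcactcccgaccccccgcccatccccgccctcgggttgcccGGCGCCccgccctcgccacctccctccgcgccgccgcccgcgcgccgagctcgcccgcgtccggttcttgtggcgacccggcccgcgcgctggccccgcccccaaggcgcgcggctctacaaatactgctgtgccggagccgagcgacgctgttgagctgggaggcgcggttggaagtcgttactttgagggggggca
Id2 held 1 GGCGCC at position 20 and no CAGAC, Id3 held no GGCGCC and 2 CAGAC matches at positions 84 and 183, and Id4 held 1 GGCGCC at position 103 and no match to CAGAC. Of 32851 promoter windows of this length, 11.9% hold GGCGCC and 49.6% hold CAGAC. Of 50 windows that belong to 42 members, 28.0% held GGCGCC and 46.0% held CAGAC. A match is a string of letters and no measure of binding.

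The classes were compared within libraries, by edgeR's quasi-likelihood test with library as a block and Benjamini-Hochberg adjustment over all genes. Against fibroblast-like cells, neuron-like cells had less of most family genes: of 52 members that passed the filter on low counts, 48 were called, 11 higher and 37 lower. Of all genes 81.5% were called, 39.6% higher and 41.8% lower, and 3 of the 52 (Bmp8a, Gdf7 and Gdf15) passed the filter only through the class where they are higher. Over the 49 that passed it in each class alone, 10 were higher and 35 lower with a median log2 difference of -1.35, beside 41.3% higher, 40.2% lower and a median of 0.02 over the genes that did so. The members lower in neuron-like cells by the largest differences were Acvrl1 (log2 -5.30 ± 0.17 SE), Fst (-5.21 ± 0.27), Tgfbr3 (-5.03 ± 0.14) and Bmp4 (-4.85 ± 0.19), with adjusted p from 9.77e-11 to 7.51e-09. All 5 tested TGF-beta and activin ligands and Id1, Id3 and Id4 were called lower. Id2 was called lower at -0.41 ± 0.15 (adjusted p = 0.0275), but its direction depended on the scaling, the day and the clusters. Without edgeR's scaling (TMM) the mean log2 ratio of CPM was 0.02, neuron-like cells were higher in the 6 libraries of days 4 and 7 and lower in the 3 of day 10, and with coarser clusters the fit gave 0.21. Fstl3 also turned without TMM, from -0.26 to 0.19, which shifts this comparison by 0.44 over all genes and that of macrophage-like cells by -0.20. Higher in neuron-like cells were Bmp7 (3.50 ± 0.34, adjusted p = 1.78e-06), Acvr2b (3.06 ± 0.13, 1.07e-09), Gdf11 (1.53 ± 0.06, 7.96e-10), and Chrd (1.0 ± 0.16, 0.000117), and in all 5 of 12 receptors were higher and 7 lower. Smad1 was called higher (0.56 ± 0.06, adjusted p = 2.25e-06), while Smad2 (0.05 ± 0.04) and Smad4 (-0.02 ± 0.09) were not called.

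Most members were lower in macrophage-like cells as well. Of 50 members tested against fibroblast-like cells, 47 were called, 8 higher and 39 lower, beside 85.6% of all genes, 39.0% higher and 46.6% lower. Of the 39 lower, 12 passed the filter on low counts only through fibroblast-like cells, where they are higher. Over the 38 members that passed it in each class alone, 8 were higher and 27 lower with a median log2 difference of -2.71, beside 44.4% higher, 40% lower and a median of 0.06 over such genes. Among the lower were Fst (-6.24 ± 0.29), Grem1 (-6.22 ± 0.26) and Fstl1 (-6.13 ± 0.23). The 8 higher members were Tgfb1 (4.69 ± 0.08, adjusted p = 1.29e-12), Gdf15 (3.69 ± 0.22), Bmp2k (2.90 ± 0.07), Tgfbr1 (2.03 ± 0.07), Id2 (1.28 ± 0.15), Tgfbr2 (0.82 ± 0.14), Acvr2b (0.62 ± 0.19) and Acvr1b (0.49 ± 0.13), with adjusted p at or under 0.0093. Macrophage-like cells thus had Tgfb1 and both TGF-beta receptor kinases above fibroblast-like levels, and Bmpr1a (-3.11 ± 0.27), Id1 (-4.31 ± 0.17) and Id3 (-4.55 ± 0.18) below.

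RNA set free in the cell suspension can add to such levels. The 16 fibroblast marker genes stood in macrophage-like cells at 0.975 to 3.87% of their fibroblast-like level, with a median of 1.56%, and all but Mmp2 were at or below 2.24%. Of 24 members with at least 20 CPM in fibroblast-like cells, 12 fell at or below the highest of these, among them Bmp1, Bmp4, Fst, Fstl1, Grem1, Id1, Id3, Inhba, Tgfb2, Tgfb3 and Tgfbr3. Of these, Tgfb3 (2.44%), Id3 (3.21%), Bmp1 (3.45%) and Id1 (3.87%) lay above all markers but Mmp2, and 6 members lay at or below the median of the markers. What part free RNA has in their counts was not tested. In neuron-like cells the markers stood at 1.98 to 27.7% (median 5.28%), and 10 members fell at or below the highest, among them Bmp4, Fst, Fstl1, Grem1, Id3, Tgfb2, Tgfb3, Tgfbr2 and Tgfbr3. All markers but Col5a2 (27.7%) were at or below 12.1%. Tgfbr2 (12.6%), Tgfb2 (16.2%), Tgfb3 (26.1%) and Id3 (27.6%) thus lay above all markers but Col5a2. Id1 (48.9%), Inhba (50.3%) and Bmp1 (39.3%) lay above the highest marker. How much of the marker signal in neuron-like cells is free RNA and how much is their own was not tested.

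Fibroblast-like cells were no single population with respect to these genes. The class was made of 8 clusters, and the ratio between the highest and lowest cluster was 69.1 for Bmp2, 33.8 for Chrdl1 and 20.2 for Grem1. Bmp2 (55.9 CPM) and Grem1 (149 CPM) both peaked in cluster 3, where Cxcl15 and Tfap2b lead. Chrdl1 (61.4 CPM), a chordin-like BMP binder, and Fst (231 CPM) peaked in cluster 1, led by Steap4 and Igf2. Bmp4 peaked at 119 CPM in cluster 5, led by Foxd1 and Igfbp2, with 105 CPM in cluster 3 and 11 CPM in cluster 0, where C1qtnf3 and Meox1 lead. Tgfb2 was high in clusters 2 (264 CPM; Adamts3, Tnn and the limb gene Hoxd13) and 3 (210 CPM) and low in cluster 0 (20.6 CPM). Inhba ranged from 15.4 CPM in cluster 2 to 47.1 CPM in cluster 0. Fstl1 was nearly even, between 1223 and 1791 CPM. These values describe cells of all libraries together and were not tested. Cluster 8 is led by Otor and by genes more usual in neurons (Tac1, Calca) and was kept in the class on its matrix genes. Cluster 5 scores higher for chondrocyte markers (0.82, the mean log2 fold over other cells) than for fibroblast markers (0.29), and was kept likewise. Without cluster 5, 9 members were called in the class by day 10 instead of 10, and without cluster 8, 11.

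**Figure D3:**
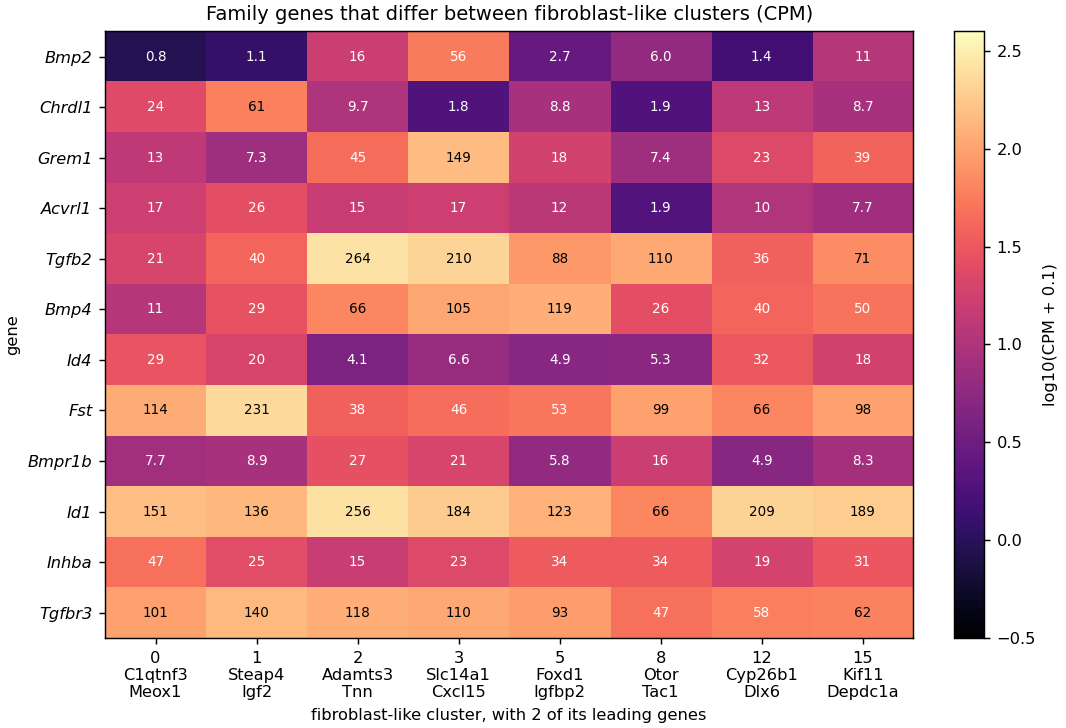
Level (CPM printed in each cell, colour following log10 of CPM, brighter for higher) of 12 members with a wide range among the 8 fibroblast-like clusters, of those that reach 20 CPM in any; columns are clusters with some of their leading genes, and cells of all 9 libraries are summed. The ratio of the highest to the lowest cluster runs from 69.1 for Bmp2 to 2.96 for Tgfbr3.

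The clusters that make up each class changed between days, and this stands beside every comparison of days below. In fibroblast-like cells, cluster 1 went from 0.229% of the class on day 4 to 6.73% on day 7 and 59.8% on day 10, while clusters 0, 2, 3 and 12 together shrank. Cluster 5 (11.6, 12.9 and 12.3%) and cluster 8 (8.49, 10.8 and 12.5%) kept their share and held at least 200 cells in every library, so levels inside them are given for some members. In neuron-like cells, cluster 16, led by Snhg11, Caly and Stmn3, rose from 1.06 to 82.7%, and clusters 4 (Miat, Lhx3) and 9 (Gcg, Pou3f2) fell from 60.2 and 38.7% to 8.89 and 8.38%. Cluster 9 scores lower for neuron markers (1.18) than clusters 4 (3.14) and 16 (3.67). Fstl1 (171 against 62.0 and 36.0 CPM) and Inhba (28.4 against 7.37 and 2.73 CPM) were higher in cluster 9 than in clusters 4 and 16, and Bmp7 was lower. In macrophage-like cells, cluster 13 (Ccl8, Ctla2b) held none on day 4 and 89.2% on day 10. Day 10 tables were also made with another version of the counting software than those of days 4 and 7, so that day and software cannot be told apart. In sums over a class, fewer cells of a kind and less RNA per cell cannot be told apart either.

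By day 7, 2 of 53 tested members had changed in fibroblast-like cells, 1 in each direction, beside 2.39% of all genes (1.13% higher, 1.26% lower). By day 10 there were 10, of which 9 were higher and 1 lower, beside 17.7% of all genes, 10.0% higher and 7.62% lower. The median log2 change of the members was 0.02 and that of all genes 0.01. The 9 that rose were 2 ligands, 2 receptors, 3 antagonists, the inhibitor Smad6 and Id2, and the one that fell was Id3. Without the Per1-/- day 10 library 4 members were called, and without the other libraries in turn 7 to 11.

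Chrdl1 rose most. It stood at 3.52, 6.57 and 3.24 CPM on day 4, at 19.8, 22.7 and 19.0 CPM on day 7 and at 28.7, 55.0 and 35.4 CPM on day 10. The days did not overlap. The log2 change was 2.26 ± 0.18 by day 7 (adjusted p = 0.00957) and 3.14 ± 0.18 by day 10 (adjusted p = 0.000107). The first call was lost without WT or Per2-/- day 7, and the second held in every alternative. Inside cluster 5 the level was 2.09, 6.09 and 3.76 CPM on day 4 and 7.88, 6.14 and 25.2 CPM on day 10, so there it was level in Per1-/- and higher in WT and Per2-/-. Inside cluster 8 it was higher on day 10 in all 3 genotypes, at 3.27, 2.33 and 3.76 CPM against 0.75, 0.88 and 0.69 CPM. Fst, the activin trap, went from 63.1, 64.7 and 61.1 CPM on day 4 to 106, 214 and 152 CPM on day 10 (1.23 ± 0.22, adjusted p = 0.0123). It did not do so inside cluster 5, where the values were 46.9, 44.7 and 43.8 CPM on day 4 and 44.6, 51.0 and 47.3 CPM on day 10, nor inside cluster 8 (126, 93.6 and 84.1 CPM, then 94.6, 125 and 119 CPM). The call for Fst was lost without the Per1-/- or the Per2-/- day 10 library.

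Id3 fell and Id2 rose in the same cells. Id3 went from 424, 360 and 409 CPM on day 4 to 273, 180 and 288 CPM on day 7 and 261, 185 and 291 CPM on day 10. Every later library was below every day 4 library, and the log2 change was -0.73 ± 0.11 by day 7 (adjusted p = 0.0255) and -0.76 ± 0.11 by day 10 (adjusted p = 0.00671). The day 7 call was lost without any one of 6 libraries (all 3 of day 7, WT or Per1-/- day 4, and Per1-/- day 10), whereas the day 10 call held in every alternative. Inside cluster 5 Id3 was also lower on day 10 in all 3 genotypes (415, 332 and 396 CPM, then 308, 284 and 339 CPM), whereas inside cluster 8 it went from 224, 205 and 227 CPM to 158, 172 and 253 CPM, higher in Per2-/-. Id2 moved from 154, 141 and 153 CPM to 217, 173 and 209 CPM (0.37 ± 0.07, adjusted p = 0.016), a call lost without any one of the day 4 libraries or Per1-/- day 10. It was higher on day 10 inside both clusters too, at 177, 140 and 145 CPM against 139, 118 and 94.1 CPM in cluster 5 and at 151, 108 and 181 CPM against 85.5, 76.0 and 67.3 CPM in cluster 8. Id1 was not called: it stood at 171, 164 and 184 CPM on day 4 and 171, 108 and 218 CPM on day 10.

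The other members that rose by day 10 changed less. Smad6, the BMP-selective inhibitor, went from 8.59, 8.41 and 8.56 CPM to 15.3, 12.3 and 13 CPM (0.62 ± 0.09, adjusted p = 0.00655), without overlap, and did likewise inside cluster 5 (8.99, 8.0 and 8.94 CPM, then 15.2, 12.4 and 11.3 CPM). Bmp6 went from 1.18, 1.12 and 0.607 CPM to 2.62, 4.44 and 2.91 CPM (1.77 ± 0.27, adjusted p = 0.00708). Inside cluster 5 it was about level in Per1-/- and higher in WT and Per2-/- (1.19, 1.05 and 1.57 CPM, then 4.23, 1.13 and 4.19 CPM). Inside cluster 8 it was lower in WT and higher in Per1-/- and Per2-/- (0.25, 0.16 and 0.0 CPM, then 0.15, 1.1 and 0.13 CPM). The receptors Acvr1 (0.45 ± 0.08, adjusted p = 0.0113) and Acvrl1 (0.73 ± 0.17, 0.0279) were higher, from 34.9, 36.2 and 28.0 CPM to 47.0, 51.1 and 40.9 CPM and from 12, 11 and 11.4 CPM to 17.4, 25 and 17 CPM. Inside cluster 5 both receptors were higher on day 10 in all 3 genotypes, and so was Acvrl1 inside cluster 8. Acvr1 inside cluster 8 was about level in WT and Per2-/- and higher in Per1-/- (49.2, 43.4 and 34.4 CPM, then 48.4, 54.8 and 34.5 CPM). Fstl1, at 1248, 1232 and 1270 CPM on day 4 and 1752, 1818 and 1473 CPM on day 10, was called at 0.38 ± 0.11 (adjusted p = 0.0452). Gdf9, an oocyte ligand at about 1 CPM here (0.645, 0.809 and 0.607 CPM, then 1.15, 1.29 and 1.39 CPM), was called at 0.86 ± 0.21 (adjusted p = 0.0293). Most alternatives that leave out a library lose the last 2 calls, 5 of them that of Acvrl1 and 2 that of Acvr1. Bmp4, Tgfb1, Tgfb2, Tgfb3 and the other 10 receptors did not pass the test.

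**Figure D4:**
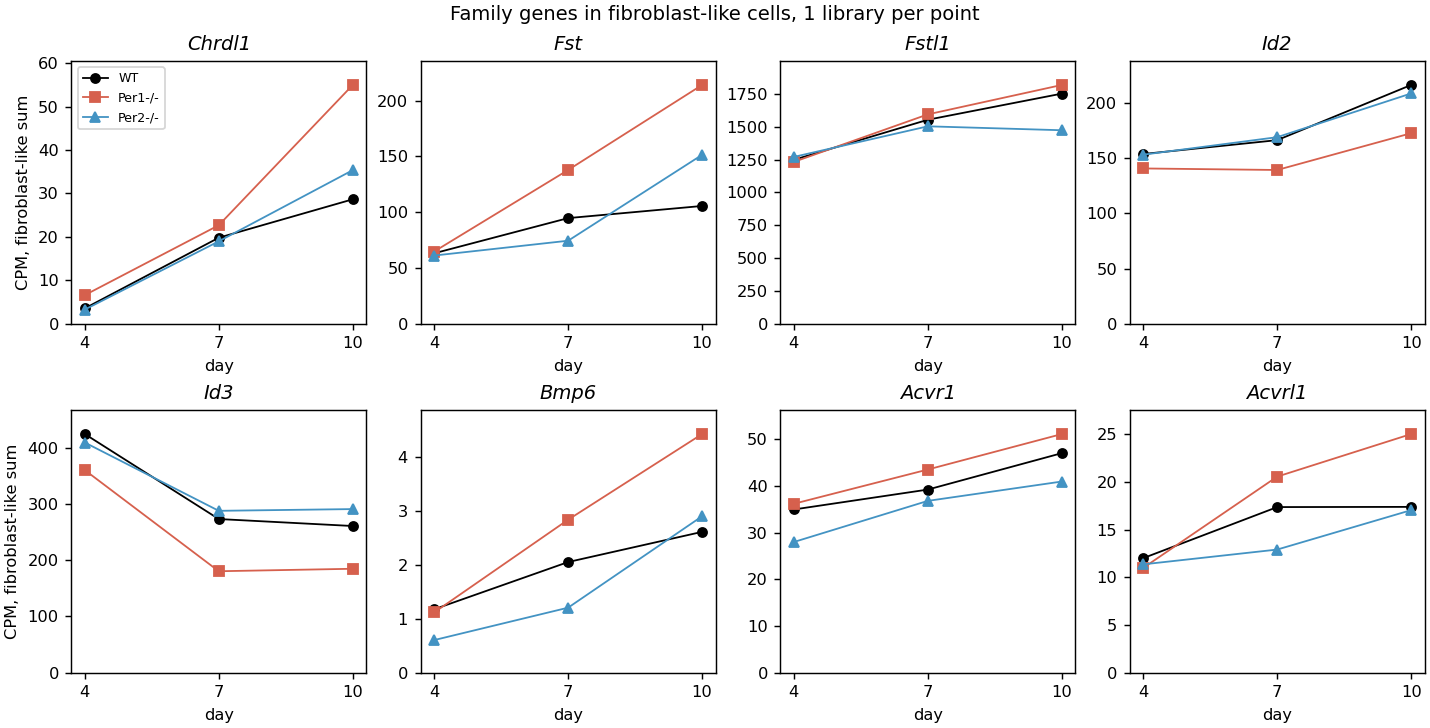
Level (CPM) of 8 of the 10 members called in fibroblast-like cells on day 10 against day 4, 1 panel per gene, by day (x axis, days 4, 7 and 10 evenly spaced), with 1 point per library and a line and colour per genotype; each y axis starts at 0. Chrdl1 and Fst are higher on day 10 than on day 4 in all 3 genotypes and Id3 is lower in all 3.

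In neuron-like cells most members that changed were lower at the later days. By day 7, 10 of 50 tested members were called, 1 higher and 9 lower, beside 18% of all genes (10.1% higher, 7.9% lower). By day 10, 23 were called, 3 higher and 20 lower, beside 43.2% of all genes (21.9% higher, 21.2% lower). The median log2 change by day 10 was -0.33 over the members and -0.02 over all genes. Called lower were 2 BMP ligands, 3 TGF-beta and activin ligands, 4 receptors, 2 antagonists, 5 SMAD genes, Bmp1 and 3 ID genes, and called higher were Id4 and the receptors Acvr1b and Bmpr1b.

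Of the ligands called by day 10, Bmp7 fell most, by 2.27 ± 0.27 on the log2 scale (adjusted p = 8.24e-05), from 23.7, 24.2 and 25.8 CPM on day 4 to 7.11, 18.8 and 8.04 CPM on day 7 and 4.95, 6.16 and 3.91 CPM on day 10. Days 4 and 10 did not overlap. Inside cluster 4, the neuron-like cluster richest in Bmp7, it went from 43.3 CPM on day 4 to 15 CPM on day 10, all libraries summed. Inside cluster 9 it went from 1.87 to 4.75 CPM, the latter from 8 UMIs. Inhba fell by 1.98 ± 0.30 (adjusted p = 0.000372), from 17.6, 18.8 and 16.5 CPM to 8.17, 4.04 and 2.38 CPM, and was lower inside cluster 9 (32.7, then 21.4 CPM). Bmp4 fell by 0.98 ± 0.29 (adjusted p = 0.0182) from 1.97, 4.66 and 4.28 CPM to 1.49, 1.70 and 1.99 CPM, a call lost without any one of 4 libraries. Inside cluster 9 Bmp4 was no lower on day 10 (5.15, then 6.53 CPM, the latter from 11 UMIs). Inside cluster 4 it went from 2.29 to 0.681 CPM, the latter from 1 UMI. By day 7, Bmp5 was called lower at -2.48 ± 0.68 (adjusted p = 0.0286) from levels of 1.92, 0.659 and 1.48 CPM, few UMIs in all. Bmp1 fell at both steps, from 52.5, 50.5 and 49.1 CPM to 31.9, 31.5 and 31.9 CPM and then 21.3, 19.3 and 18.4 CPM (-1.28 ± 0.09 by day 10, adjusted p = 2.86e-06). The 3 days did not overlap, and it was lower inside cluster 4 (38.1, then 30 CPM) and cluster 9 (66.2, then 41.5 CPM).

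Of the SMAD genes, Smad3 fell by 1.22 ± 0.19 on the log2 scale (adjusted p = 0.000568), from 7.73, 7.53 and 7.43 CPM to 3.47, 3.19 and 2.68 CPM. Smad4 fell by 1.11 ± 0.23 (adjusted p = 0.00297), from 187, 183 and 117 CPM to 59.7, 54.8 and 90.5 CPM. The WT and Per1-/- day 4 libraries held the highest Smad4 levels not only here but in each of the 7 classes, for instance 104 and 104 CPM in fibroblast-like cells against 53.1 to 80.3 CPM in the other libraries. What sets these libraries apart was not tested. Smad6 fell by 1.87 ± 0.53 (adjusted p = 0.0159) from 1.56, 1.73 and 1.33 CPM, with 0 UMIs in the WT day 10 library. Among receptors, Tgfbr2 fell by 0.96 ± 0.20 (adjusted p = 0.00263), from 21.4, 18.5 and 14.6 CPM to 8.42, 7.86 and 8.74 CPM. Inside clusters it did not do so to that extent, with 13.5 CPM on day 4 and 15 CPM on day 10 in cluster 4 and 25.1, then 22 CPM in cluster 9. With libraries summed, Smad4 was lower on day 10 inside both, at 97.4 against 181 CPM in cluster 4 and 79.5 against 160 CPM in cluster 9. Most day 4 cells of both clusters came from the WT and Per1-/- libraries, where Smad4 was high in every class. These gave 1379 and 1480 of 3875 cells in cluster 4 and 1027 and 874 of 2493 in cluster 9.

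Id1, Id2 and Id3 fell in the neuron-like class and Id4 rose. Id1 went from 89.5, 90.9 and 89.7 CPM on day 4 to 32.2, 31.7 and 63.1 CPM on day 10 (-1.01 ± 0.18, adjusted p = 0.00124) and Id3 from 106, 87.5 and 102 CPM to 44.3, 35.9 and 51.7 CPM (-1.07 ± 0.11, adjusted p = 2.6e-05). Id2 went from 206, 206 and 216 CPM to 134, 104 and 120 CPM (-0.73 ± 0.09, adjusted p = 0.000129). In none of the 3 did days 4 and 10 overlap. Inside cluster 4, however, the levels on days 4 and 10 were 141 and 148 CPM for Id1, 350 and 398 CPM for Id2 and 147 and 165 CPM for Id3 (3875 and 121 cells), so they were no lower on day 10 there. Inside cluster 9 (2493 and 114 cells) Id1 and Id3 were lower, at 30 and 17.2 CPM and at 38.2 and 22.6 CPM, while Id2 was higher, at 40.8 and 67.0 CPM. In the 68 cells of cluster 16 on day 4, Id1, Id2 and Id3 stood at 66.8, 63.7 and 103 CPM. The class was mostly clusters 4 and 9 on day 4 and mostly cluster 16 on day 10, where Id1, Id2 and Id3 stood at 45.9, 102 and 39.9 CPM. The direction also turned with coarser clusters, to 0.07 for Id1, 0.20 for Id2 and 0.20 for Id3 (0.05 for Id3 by day 7). There the neuron-like class took in cells that finer clustering places with skeletal muscle-like cells, 2.62% of it on day 4 and 12.1% on day 10. Id4 rose by 1.60 ± 0.38 on the log2 scale (adjusted p = 0.00607), from 3.56, 3.66 and 1.82 CPM to 8.42, 5.10 and 13 CPM, a call that was lost without the Per2-/- day 10 library.

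In macrophage-like cells, no member of 39 tested was called by day 7 by edgeR, beside 0.56% of all genes. An unadjusted p under 0.05 was reached by 9 of them, beside 21.4% of all genes, and DESeq2 called 3 of 29, beside 5% of all genes. By day 10, 3 were called, 1 higher and 2 lower, beside 17.7% of all genes (9.12% higher, 8.58% lower). Tgfbr2 rose from 169, 144 and 145 CPM on day 4 to 262, 215 and 215 CPM on day 10 (0.66 ± 0.13, adjusted p = 0.0122), without overlap. Id2 fell from 488, 470 and 523 CPM to 397, 250 and 242 CPM (-0.72 ± 0.15, adjusted p = 0.0177) and Smad7 from 9.39, 8.29 and 9.90 CPM to 7.38, 2.61 and 3.2 CPM (-1.17 ± 0.32, adjusted p = 0.0366). Id2 was also lower on day 10 inside the dividing cluster 20 (501 CPM on day 4, 320 CPM on day 10) and cluster 10 (476, then 387 CPM), and Tgfbr2 higher (93.7, then 119 CPM in cluster 20; 168, then 191 CPM in cluster 10). Smad7 was lower inside cluster 20 (7.16, then 3.4 CPM). Inside cluster 10 it was nearly level (9.35, then 8.54 CPM), the latter from 14 UMIs in 68 cells. None of the 3 was called without the Per1-/- day 10 library. The call for Tgfbr2 was also lost without the WT day 10 or the Per1-/- day 4 library. Those for Id2 and Smad7 were lost without the Per2-/- day 10 library. Without the Per1-/- day 4 or the Per2-/- day 7 library only 1 lower member was called, so at least 1 of these 2 calls was lost there too. Tgfb1 did not pass the test, with all libraries within 371 to 427 CPM.

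**Figure D5:**
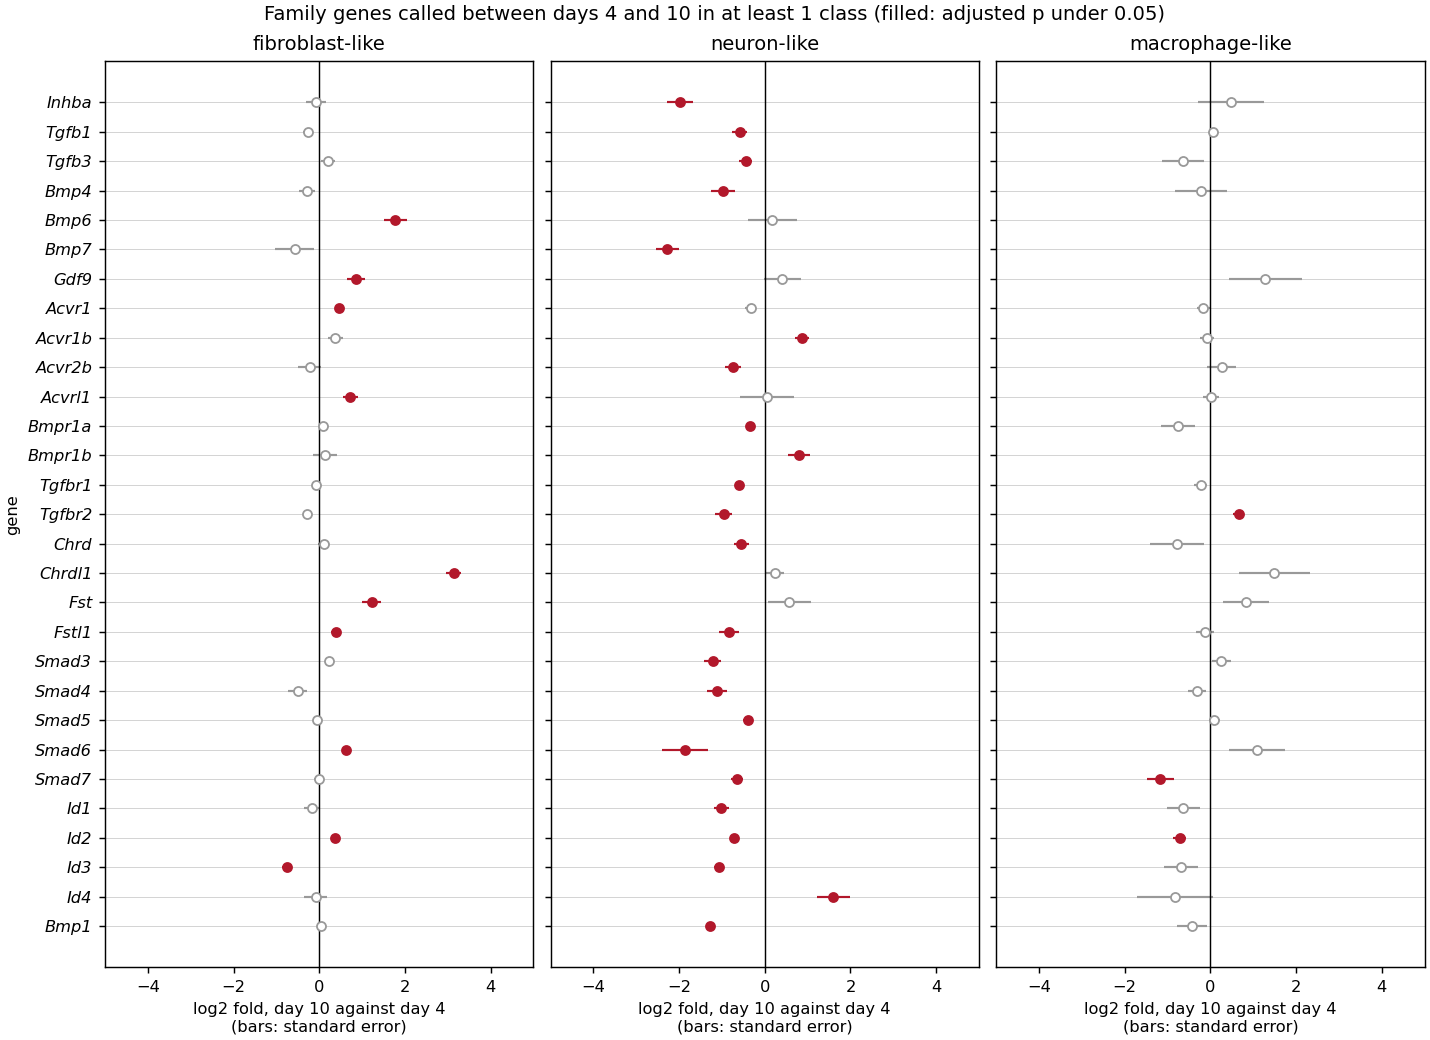
Log2 change from day 4 to day 10 (x axis, edgeR) of the 29 members called in at least 1 of the 3 tested classes (y axis, grouped by role), 1 panel per class; bars are standard errors and filled red points have an adjusted p under 0.05. Bmp7, Inhba, Smad3, Id1, Id2 and Id3 lie left of 0 in the neuron-like panel, and Chrdl1, Bmp6 and Fst lie right of 0 in the fibroblast-like panel.

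Whether the change from day 4 to day 10 differed between classes was tested as an interaction over both classes. Between neuron-like and fibroblast-like cells it differed for 22 of 52 members, 2 with the higher and 20 with the lower change in neuron-like cells, beside 39.7% of all genes (18.6% higher, 21.1% lower). One with the higher change, Gdf15, had 43 UMIs in neuron-like cells in all and passed the filter only through fibroblast-like cells. The members with the largest differences were Chrdl1 (log2 -2.93 ± 0.32, adjusted p = 0.000115), which rose in fibroblast-like cells, and Smad6 (-2.47 ± 0.41, adjusted p = 0.00115), which moved in opposite directions in these classes. For Id2 the difference was -1.11 ± 0.08 (adjusted p = 1.51e-05) and for Id3 it was not called. Between macrophage-like and fibroblast-like cells the change differed for 2 of 50 members, 1 in each direction, beside 2.75% of all genes (2.05% higher, 0.707% lower): Tgfbr2 (1.01 ± 0.17, adjusted p = 0.0241) and Id2 (-1.02 ± 0.19, adjusted p = 0.0281). Neither was called without any one of the 3 day 4 libraries or of the Per1-/- and Per2-/- day 10 libraries, where the log2 values were 0.84 to 1.05 and -1.07 to -0.93.

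No member was called between genotypes. In fibroblast-like cells 53 members were tested, and edgeR called none for Per1-/- against WT or for Per2-/- against WT, beside 0.0% of all genes in both. In neuron-like cells none of 50 was called, beside 0.0068 and 0.0% of all genes, and in macrophage-like cells none of 39, beside 0.00778 and 0.0%. An unadjusted p under 0.05 was reached by 11 and 4 members in fibroblast-like cells, 4 and 4 in neuron-like cells and 5 and 3 in macrophage-like cells, for Per1-/- and Per2-/- respectively, beside 9.19 and 7.02%, 4.19 and 5.78%, and 9.28 and 15.8% of all genes. DESeq2 called 4 of 52 members for Per1-/- in fibroblast-like cells, beside 1.77% of all genes, and none in the other 5 comparisons, where it called 0.108 to 2.24% of all genes. The uncalled members with low levels in later knockout libraries included Grem1 and Bmp2, named after their values were seen. Grem1 in fibroblast-like cells stood at 41.1, 9.73 and 4.42 CPM on days 4, 7 and 10 in Per1-/- against 53.7, 59.0 and 63.2 CPM in WT and 62.5, 29.5 and 15.7 CPM in Per2-/- (log2 -2.26 ± 0.55 for Per1-/- against WT, adjusted p = 0.347). Bmp2 stood at 11.7, 2.21 and 5.11 CPM in Per1-/-, at 15.1, 10.7 and 7.48 CPM in Per2-/- and at 14.4, 19.2 and 27.8 CPM in WT (-1.86 ± 0.50, adjusted p = 0.363). Both genes peak in cluster 3, which held 951, 27 and 67 cells in the Per1-/- libraries, 1141, 364 and 131 in Per2-/- and 1022, 1103 and 436 in WT. Inside cluster 5, Grem1 stood at 20.45, 6.258 and 5.222 CPM in Per1-/- against 30.12, 16.5 and 15.96 CPM in WT. In cluster 8 it stood at 10.87, 2.638 and 1.115 against 14.99, 10.5 and 11.14 CPM. Bmp2 was higher in Per1-/- inside cluster 5 (2.243, 2.483 and 6.451 against 1.526, 2.298 and 3.076 CPM). It was lower inside cluster 8 (3.277, 4.749 and 7.299 against 3.748, 5.998 and 11.14 CPM). What part cluster makeup has was not tested.

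A list of 76 other genes of the pathway, chosen by role, is given by its counts. In neuron-like against fibroblast-like cells 14 of the 60 that passed the filter in each class alone were higher and 42 lower, beside 41.3 and 40.2% of the genes that did so, and all 11 such targets usually induced by TGF-beta or activin were lower, including Acta2 (log2 -5.08), Tgfbi (-5.13) and Ctgf (-4.20). In macrophage-like against fibroblast-like cells 7 of 49 such genes were higher and 37 lower, beside 44.4 and 40% of the genes that passed in each class. Nrros, which anchors latent TGF-beta1 on myeloid cells, was higher there by 8.67 on the log2 scale. The matrix proteins Ltbp2 (-5.93) and Ltbp4 (-4.33) were lower. By day 10, fibroblast-like cells had 6 of 70 higher and 7 lower, beside 10.0 and 7.62% of all genes. Of 12 targets usually induced by TGF-beta or activin 5 were lower, with the contractile genes Cnn1 (-2.05) and Acta2 (-1.64), the matrix gene Tgfbi (-1.16) and Bhlhe40 (-0.77) among them, and of 10 tested BMP targets 1 was higher, Gata6 (1.81). Neuron-like cells had 4 of 61 higher and 28 lower by day 10, beside 21.9 and 21.2% of all genes, with Itgav (-1.54), Fbn1 (-1.46) and Tgif1 (-1.92) among the lower ones. Macrophage-like cells had 2 of 49 higher and 4 lower, beside 9.12 and 8.58% of all genes, among them the decoy receptor Bambi (-1.59). No gene of the list was called between genotypes in any class or by day 7 in fibroblast-like and macrophage-like cells, and 2 of 61 were higher and 13 lower by day 7 in neuron-like cells, beside 10.1 and 7.9% of all genes.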

How the data were processed

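The deposited files are gene by barcode matrices of UMI counts that the authors made with Cell Ranger. The submitters' processing notes name version 7.1 and mm10, whereas the matrix headers name 4.0.0 (days 4 and 7) and 6.0.0 (day 10), with 31053 and 32285 genes, so the 30406 identifiers present in both were used. Barcodes with at least 3000 UMIs and at most 20% mitochondrial UMIs were kept, and doublets were removed by Scrublet rank at 0.8% per 1000 barcodes. Cells were clustered without the members in scanpy 1.11.5 (2000 variable genes, 30 components, 15 neighbours, Leiden resolution 1). Clusters were named from fixed marker lists, but the limits that name a fibroblast-like cluster were set after the clusters were seen. Counts were summed per library and class. edgeR 4.0.16 (quasi-likelihood test, TMM, filterByExpr, genotype and day as factors) was run on all genes with Benjamini-Hochberg adjustment and a threshold of 0.05. Standard errors, in the text and as bars, were derived from this test, as the absolute log2 change divided by the square root of its F statistic. DESeq2 1.42.0, other scalings and filters, doublets kept, coarser clusters (resolution 0.5) and leaving out each library were alternatives. The tests were checked on simulated counts. Members and lists were chosen with earlier results of these data known. Genes are named by role: those with at least 20 CPM in a class, and up to 10 called members per contrast with the largest change, with values per library for the TGF-beta isoforms and ID genes. Some genes are not reported here.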

Additional observations from a re-analysis of the deposited data

Results flagged for a closer look

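For the results here the change from day 4 to day 10 differed between classes by the interaction test (edgeR, adjusted over all genes). All values are log2 changes in one class minus the change in fibroblast-like cells, and no explanation was tested. Cluster makeup moved with day in each class, as given above.

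In neuron-like cells the change was lower than in fibroblast-like cells for ligands, with Inhba at -1.98, Bmp7 at -1.78, Bmp6 at -1.62 and Tgfb3 at -0.67. It was lower for the protease Bmp1 at -1.34 and for the binding proteins Chrdl1 at -2.93 and Fstl1 at -1.26. Among receptors it was lower for Acvr1 at -0.79, Tgfbr2 at -0.68, Acvr2b at -0.61, Tgfbr1 at -0.52, Bmpr1a at -0.45 and Bmpr2 at -0.41. Among SMAD genes it was lower for Smad6 at -2.47, Smad3 at -1.45, Smad7 at -0.66, Smad4 at -0.65 and Smad5 at -0.34. Among ID genes it was lower for Id2 at -1.11 and Id1 at -0.90, and higher for Id4 at 1.66. With coarser clusters (Leiden resolution 0.5) the value for Id1 turned to 0.205. For the stress-induced ligand Gdf15 the difference was 1.54, but neuron-like cells held 43 of its UMIs in all and it was not tested within them, so that the value rests on its level in fibroblast-like cells, where its change (-0.67) was not called. The calls for Bmp6, Bmp7, Tgfb3, Acvr2b, Tgfbr2, Gdf15 and Id4 were lost in at least 1 alternative that leaves out a library, and the other calls of this paragraph were kept in all of those.

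In macrophage-like cells the change was higher for Tgfbr2 at 1.01 and lower for Id2 at -1.02. Both calls were lost without any one of the 3 day 4 libraries or of the Per1-/- and Per2-/- day 10 libraries.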

How the results depend on the processing

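Of 167 calls of single members, 118 kept their direction and call in every alternative, and over all alternatives 191 values kept the direction without the call. Leaving out 1 library at a time moved the counts of called members as follows. Day 7 against day 4 gave 0 to 3 instead of 2 in fibroblast-like cells (0 without WT day 7 or Per2-/- day 7), 3 to 14 instead of 10 in neuron-like cells (3 without WT day 4, 6 without Per2-/- day 7) and 0 to 1 instead of 0 in macrophage-like cells (1 without Per2-/- day 4). Day 10 against day 4 gave 4 to 11 instead of 10 in fibroblast-like cells (4 without Per1-/- day 10) and 0 to 4 instead of 3 in macrophage-like cells (0 without Per1-/- day 10, 1 without Per1-/- day 4). Per1-/- against WT gave 0 to 2 in fibroblast-like and 0 to 1 in macrophage-like cells instead of 0 (2 and 1 without Per1-/- day 4). The interaction of macrophage-like and fibroblast-like cells gave 0 to 3 instead of 2, with 0 without any one of the day 4 libraries or of Per1-/- and Per2-/- day 10, and 1 without Per1-/- day 7. DESeq2 called 5 members by day 7 and 4 for Per1-/- in fibroblast-like cells, and 3 by day 7 in macrophage-like cells. Without a filter on low counts 17 were called by day 7 in neuron-like and 3 in macrophage-like cells. The counts of this paragraph stand without the shares of all genes called in the same alternatives, which move as well. They are therefore no result about the members as a group.

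Directions turned at Leiden resolution 0.5 and, between classes, on CPM without TMM. At resolution 0.5, by day 10 in neuron-like cells Id1 was 0.074, Id2 0.203 and Id3 0.196, and by day 7 Id3 was 0.053. Id2 in neuron-like against fibroblast-like cells was 0.206, and the interaction of Id1 was 0.205. The coarser class held 173 skeletal muscle-like cells on day 4, 205 on day 7 and 187 on day 10. What part they have in the turn was not tested. On CPM without TMM, 2 of 76 class calls turned, Id2 to 0.019 and Fstl3 to 0.191 in neuron-like against fibroblast-like cells. The 3 alternatives on the makeup of the fibroblast-like class (without the Foxd1 or the Otor cluster, with the Comp cluster) and the values on CPM were chosen after seeing the data.

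The class comparisons hold library as a block and the day comparisons genotype as a factor. The labels give no replicate numbers beyond these. Calls on members near 1 CPM in neuron-like cells, such as Bmp5 and Smad6, rest on few UMIs. Gdf9 was also near 1 CPM, in the larger fibroblast-like sums. Day 10 cannot be told apart from its counting software.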
